A study of Mus musculus with 7 samples.

Results

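Accessible chromatin was measured at the loci of 8 forkhead transcription factor genes, Foxp3, Foxp1, Foxp4, Foxo1, Foxo3, Foxn3, Foxj2 and Foxk1, in sorted splenic regulatory T cells (Treg cells) of mice. A peak belonged to a locus when it overlapped the gene, or lay within 100 kb of it with that gene the nearest protein-coding gene. This took 153 of the 50213 deposited peaks, 120 inside the genes and 33 outside them. The assay was ATAC-seq, in which a transposase inserts sequencing adapters into open DNA. Mixed bone marrow chimeras had received CD45.1+ marrow together with marrow that was either Foxp3Cre (WT) or Foxp3Cre with floxed Opa1 (Opa1 KO). Foxp3-YFP+ CD4+ cells positive for CD45.2 and negative for CD45.1 were sorted, 1 library for each of 4 WT and 3 KO chimeras. The Foxp3Cre allele was carried by the sorted cells of both groups, and it deletes Opa1, a fusion GTPase of the inner mitochondrial membrane, only where Foxp3 is expressed. Neither age nor sex of the mice is stated in the labels.

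Forkhead factors bind DNA through a winged-helix domain that recognises sites related to TGTTTAC. FOXP3 defines the Treg lineage, and its gene is controlled by a promoter and by conserved noncoding enhancers, of which CNS2 maintains Foxp3 expression in dividing Treg cells and CNS3 helps to start it. FOXO1 and FOXO3 are held in the cytoplasm when phosphorylated by AKT and enter the nucleus when that signal is low, where they support Foxp3 expression and genes of resting and recirculating T cells. FOXP1 maintains T cell quiescence and can pair with FOXP3, and FOXP4 belongs to the same subfamily. FOXK1 takes part in metabolic and autophagy gene control downstream of mTOR, FOXN3 is a repressor linked to cell cycle checkpoints, and FOXJ2 is a transcriptional activator.

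Start sites of 7 of the 8 genes had sequences in RefSeq (GRCm38.p6), each running 300 bases around an annotated start. Peaks overlapped those of Foxo1, Foxo3, Foxp4 and Foxj2 and, by 13 bases, a start of Foxp1, but neither start of Foxp3. The starts of Foxo1, Foxo3, Foxp4 and Foxj2 are shown because they differ from the Foxp3 start in a feature visible in the letters. It is the density of the dinucleotide CG, which is in capitals. Foxp1 starts that go against this are not shown and are described after the sequences. A start without a peak was not shown to be closed, since counts were given for peaks only. The position is given with each name and the strand after it.
Foxo1, chr3:52268087-52268386, plus strand: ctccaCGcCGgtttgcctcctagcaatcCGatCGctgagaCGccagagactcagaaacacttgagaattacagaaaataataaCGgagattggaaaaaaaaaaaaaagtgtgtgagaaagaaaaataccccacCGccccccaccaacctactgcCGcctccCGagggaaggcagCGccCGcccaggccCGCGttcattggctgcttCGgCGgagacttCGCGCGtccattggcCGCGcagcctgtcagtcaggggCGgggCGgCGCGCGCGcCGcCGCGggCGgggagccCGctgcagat
Foxo3, chr10:42276646-42276945, minus strand: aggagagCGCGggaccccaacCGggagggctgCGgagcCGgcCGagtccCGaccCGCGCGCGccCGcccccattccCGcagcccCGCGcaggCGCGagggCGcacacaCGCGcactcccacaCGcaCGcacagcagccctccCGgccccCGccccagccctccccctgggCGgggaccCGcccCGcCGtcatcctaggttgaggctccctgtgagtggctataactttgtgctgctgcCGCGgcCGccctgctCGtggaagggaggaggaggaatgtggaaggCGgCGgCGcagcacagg
Foxp4, chr17:47924583-47924882, minus strand: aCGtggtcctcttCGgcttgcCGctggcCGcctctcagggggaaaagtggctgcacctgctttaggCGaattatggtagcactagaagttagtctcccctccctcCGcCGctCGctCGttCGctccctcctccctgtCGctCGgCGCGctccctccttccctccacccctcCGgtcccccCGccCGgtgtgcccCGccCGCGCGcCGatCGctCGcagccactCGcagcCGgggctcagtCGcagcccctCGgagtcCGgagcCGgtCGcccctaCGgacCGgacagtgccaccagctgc
Foxj2, chr6:122819934-122820233, plus strand: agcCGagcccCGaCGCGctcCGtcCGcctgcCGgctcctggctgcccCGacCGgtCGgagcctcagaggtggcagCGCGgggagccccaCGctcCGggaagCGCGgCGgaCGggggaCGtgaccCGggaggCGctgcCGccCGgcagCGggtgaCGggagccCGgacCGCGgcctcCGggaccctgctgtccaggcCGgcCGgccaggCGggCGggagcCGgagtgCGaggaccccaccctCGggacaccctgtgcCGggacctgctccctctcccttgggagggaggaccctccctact
Foxp3, chrX:7579426-7579725, plus strand: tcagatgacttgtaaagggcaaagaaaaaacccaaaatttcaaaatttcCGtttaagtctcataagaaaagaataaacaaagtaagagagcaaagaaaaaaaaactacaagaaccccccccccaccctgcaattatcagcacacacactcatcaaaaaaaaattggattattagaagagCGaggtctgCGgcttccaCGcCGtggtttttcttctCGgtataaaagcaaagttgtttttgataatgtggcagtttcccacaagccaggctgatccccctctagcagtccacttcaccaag

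The 4 starts shown with a peak held 31 CG dinucleotides at Foxo1, 35 at Foxo3, 33 at Foxp4 and 37 at Foxj2. Their GC content ran from 61.3% to 78.3%. The first Foxp3 start held 6 at a GC content of 40.7%, and its second start held 8 at 47.7%. Of all 32851 such sequences in the table, 33.8% overlapped a peak, and the share was 73.8% among those with 15 or more CG and 12.7% among those with fewer. One Foxp1 start went against this pattern, with 44 CG and no peak, and another Foxp1 start with 5 CG shared 13 bases with a peak. The remaining Foxp1 start, with 13 CG, and the Foxn3 start, with 6, had no peak. The motif TGTTTAC, searched on both strands, was in none of the 10 start sequences of these genes and in 3.65% of all. The related TGTTTGC was in 1 of them, a Foxp1 start, and in 5.07% of all.

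The libraries held 1534394 to 3384325 counts in peaks, KO replicate 1 being the deepest, and the median count per peak was 14 to 30. Values are in CPM, read counts relative to the TMM-scaled total of each library. For a chi-square test between libraries the counts were halved, on the assumption that both mates of each pair had been counted. Without halving, the same differences would stand farther beyond sampling noise. Between WT replicates 2 and 3 the difference in halved counts was within sampling noise over 36418 peaks (chi-square p = 0.111). It was not over the 11332 most counted (chi-square p = 0.0385). Every other pair of libraries within a group differed at both. The average of WT replicates 2 and 3 was counted as 1 sample in means and SDs, although the labels give them as separate replicates. Where they differ, the WT SD leaves that difference out and can be too small. At the peak on the Foxo1 start, for example, they held 48.0 and 26.8 CPM, and the WT SD was 4.89. Each mean ± SD has n = 3 in both groups, while the test used all 7 libraries. Treg genes were open in every library: the peaks of Foxp3, Il2ra, Ctla4, Ikzf2, Ikzf4 and Tnfrsf18 summed to 1548 to 1668 CPM in WT and 1598 to 1676 in KO. Of 5 myeloid genes, Lyz2 and Csf1r had no peak, and the remaining ones summed to 44.5 to 65.5 CPM over all libraries. The NK cell genes, of which Ncr1 had no peak, summed to 195.2 to 231.3 CPM in WT and 229.0 to 232.2 in KO, the 2 CD8 genes to 42.9 to 62.4 over all libraries and the 3 erythroid genes to 30.4 to 59.7. The sums rest on 75 peaks for the Treg genes, 6 for myeloid, 19 for NK, 7 for CD8 and 4 for erythroid genes. They therefore do not compare the cell types with each other. None of the tested genes of these lists was called. A bulk library cannot tell a site open in fewer cells from a site less open in each cell.

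None of the forkhead loci passed the test for a difference between Opa1 KO and WT Treg cells, either peak by peak or as sums. Of the 153 peaks, 120 had enough counts to be tested, and edgeR's quasi-likelihood test called 0 of them at an adjusted p of 0.05. Over all 38041 tested peaks 0.0867% were called. An unadjusted p under 0.05 was reached by 11 of the 120 forkhead peaks, 9.17%, and by 9.46% of all tested peaks. DESeq2 also called 0. The forkhead peaks had a median log2 fold change of 0.05, with 64 above 0 and 56 below. Over all tested peaks the median was -0.002 and 49.7% lay above 0. The standard error of a forkhead peak was 0.33 at the median, so that a difference at a single peak was measured far less closely than a difference in a sum, whose standard errors ran from 0.06 to 0.13.

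Separation of every KO library from every WT library was seen at 16 of the 120 tested forkhead peaks, or 13.3%, against 9.32% of all tested peaks. KO was higher at 7 of them, where 4.84% of all tested peaks were higher, and lower at 9, where 4.47% of all were lower. The count moved with single libraries, and so did the share of all tested peaks. It was 25 without WT replicate 4 (20.8%, against 14.5% of all) and 26 without KO replicate 3 (21.7%, against 15.9%). Without KO replicate 1 it was 20, or 16.7%, below the 17.7% of all tested peaks. With each of the other libraries left out it was 19 to 23 (15.8% to 19.2%, against 13.8% to 17.4% of all). On all libraries the 16 were spread over 7 loci: 6 at Foxp1, 3 at Foxo1, 2 each at Foxo3 and Foxn3, and 1 each at Foxp4, Foxj2 and Foxk1. No tested Foxp3 peak was among them.

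**Figure D1:**
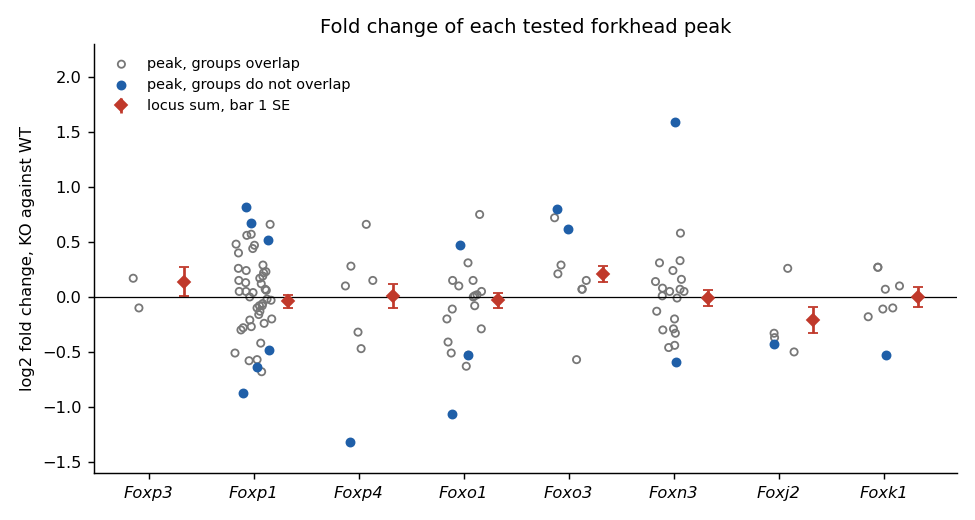
Log2 fold change, Opa1 KO against WT, of each of the 120 tested peaks by locus (circles; filled where the 4 WT and 3 KO libraries did not overlap) and of the summed locus (diamonds, bars 1 SE). Peaks lie on both sides of 0 at every locus, and the summed loci lie between -0.21 at Foxj2 and 0.21 at Foxo3.

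Foxp3 itself had 3 peaks, all inside the gene (chromosome X, 7579676 to 7595243). The largest, 7583850 to 7584440, was centred 4469 bp past the start of the gene, in the part of the locus where the enhancer CNS2 is described. It held 53.6, 63.6, 66.5 and 57.8 CPM in WT replicates 1 to 4 and 66.9, 63.3 and 72.7 in KO replicates 1 to 3. The highest library was KO replicate 3 and the lowest was WT replicate 1, and the groups overlapped. Its level placed it at the 91.4 percentile of all tested peaks. The log2 fold change was 0.17 (SE 0.14, adjusted p = 0.758).

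The second Foxp3 peak, 7586588 to 7586760, was centred 6998 bp past the start, where CNS3 is described. It held 10.3, 13.0, 11.7 and 9.64 CPM in WT and 5.92, 7.31 and 18.7 in KO. The KO libraries lay on both sides of all WT libraries, with replicate 3 the highest of the 7, so that the KO mean of 10.6 ± 7.0 was close to the WT mean of 10.7 ± 1.41 (log2 fold change -0.10, SE 0.36, adjusted p = 0.965). The last, 7591674 to 7591817, had 4 to 6 counts in each WT library and 6 to 13 in each KO library and was too low to be tested. It stood at 2.33 to 2.80 CPM in WT and 3.11 to 4.26 in KO.

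Summed over its 3 peaks, Foxp3 had 67.0, 79.3, 80.7 and 70.0 CPM in WT and 76.5, 74.9 and 93.9 in KO. The means were 72.3 ± 6.78 and 81.8 ± 10.5, and the log2 fold change was 0.14 (SE 0.13, adjusted p = 0.758), with an approximate 95% interval from -0.12 to 0.40. The groups overlapped, and KO replicate 3 alone lay above all WT libraries. Without KO replicate 3 the fold change of the sum was 0.04 (edgeR adjusted p = 0.984). Chromosome X as a whole held 2.29% to 2.40% of the counts over the 7 libraries. The largest peak carried 80.3% to 82.6% of the locus in WT and 76.9% to 87.3% in KO.

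**Figure D2:**
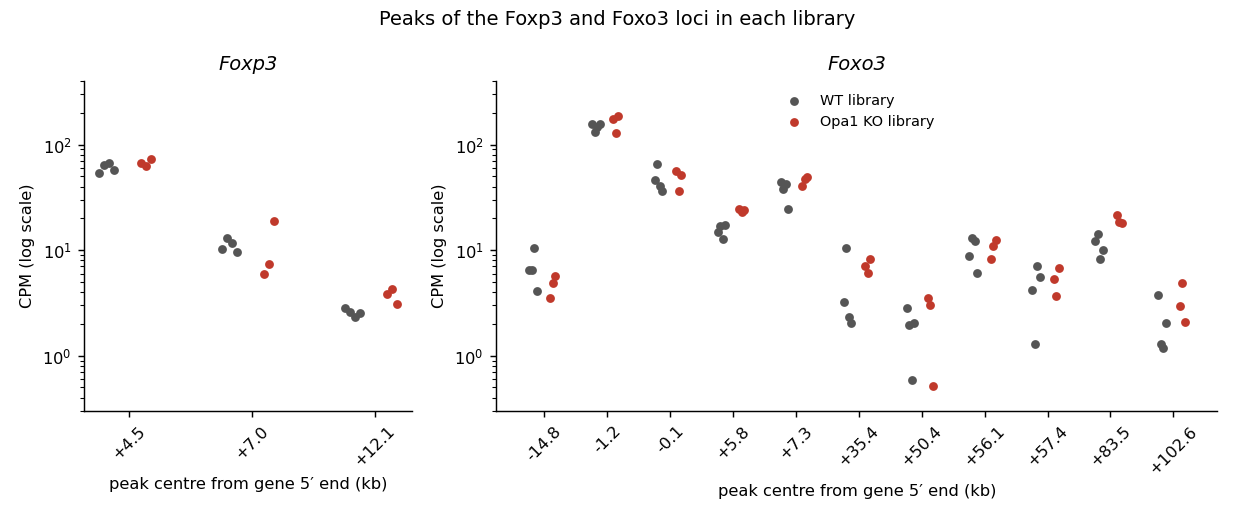
CPM (log axis) of every peak of the Foxp3 and Foxo3 loci in each of the 4 WT and 3 Opa1 KO libraries, ordered along the gene by the distance of the peak centre from the 5′ end in kb (equal spacing, not to scale). The first Foxp3 peak lies at 53.6 to 72.7 CPM in all 7 libraries, and the Foxo3 peaks at +5.8 and +83.5 kb have all KO libraries above all WT libraries.

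Foxp1 was the locus with the most peaks, 53 inside its 597405 bp (chromosome 6, 98925342 to 99522746) and 1 outside. Its sum was the steadiest of the 8 loci, with a coefficient of variation over the 7 libraries of 3.09%. It stood at 714.8, 703.6, 704.9 and 710.2 CPM in WT and 725.8, 677.0 and 664.6 in KO, and the KO libraries lay on both sides of WT. The log2 fold change was -0.04 (SE 0.06, adjusted p = 0.889), with an interval from -0.15 to 0.08. Of 48 tested peaks 25 lay above 0 and 23 below, from -0.87 to 0.82.

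The largest Foxp1 peak, 99056943 to 99057605, held 51.3 ± 4.41 CPM in WT and 49.6 ± 5.74 in KO (edgeR log2 fold change -0.06, SE 0.16). Of the 48 peaks 4 had an unadjusted p under 0.05. The smallest p was at the peak 98992738 to 98993169, which held 32.6, 24.7, 22.2 and 24.3 CPM in WT and 14.2, 18.3 and 18.7 in KO, each KO library below each WT library. Its log2 fold change was -0.64 (SE 0.24, adjusted p = 0.367). Of the other Foxp1 peaks without overlap, those with the smallest p were on either side of a peak whose groups overlapped. The peak 99380130 to 99380448 held 16.3, 17.5, 11.7 and 13.2 CPM in WT and 6.52, 11.6 and 6.75 in KO (edgeR log2 fold change -0.87, SE 0.34, adjusted p = 0.378). The tested peak between them, 99385046 to 99385561, held 6.49 to 14.2 CPM in WT and 7.78 to 13.0 in KO (edgeR log2 fold change -0.16, SE 0.34, adjusted p = 0.93). The peak 99388740 to 99389303 held 4.66, 9.09, 9.33 and 8.12 in WT and 14.8, 12.2 and 13.5 in KO (edgeR log2 fold change 0.82, SE 0.34, adjusted p = 0.431). None of these was called.

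Foxp4 had 8 peaks (chromosome 17, 47867133 to 47924632), 7 of them tested. Its sum was 103.1, 138.4, 122.2 and 107.5 CPM in WT and 124.1, 108.5 and 117.7 in KO (edgeR log2 fold change 0.01, SE 0.11, adjusted p = 0.995), and the KO libraries lay within the WT range. The interval ran from -0.21 to 0.22. Its start peak, 47924344 to 47924945, which covered all 300 bases of the start sequence, held 24.3 ± 5.76 CPM in WT and 27.1 ± 3.59 in KO. The largest peak, 47873273 to 47873921, held 28.4 to 47.8 in WT and 40.5 to 47.4 in KO. A small peak 720 bp beyond the gene, upstream of that start (47925352 to 47925626), had 8.86, 11.7, 8.75 and 8.12 CPM in WT and 4.15, 3.65 and 3.11 in KO. All KO libraries were below all WT libraries there, on 6 to 14 counts per KO library and 15 to 19 per WT library. Its log2 fold change was -1.32 (SE 0.45, adjusted p = 0.297). The peak passed the filter on low counts through its WT values, so it could be tested only because it was higher there.

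Of the FOXO genes, Foxo1 (chromosome 3, 52268337 to 52350109) had 25 peaks, 14 of them outside the gene. Its sum was 337.9, 304.7, 309.2 and 341.2 CPM in WT and 334.2, 315.6 and 299.3 in KO, overlapping (log2 fold change -0.03, SE 0.07, adjusted p = 0.940, interval -0.17 to 0.11). Over the 11 peaks inside the gene alone it was -0.22 (edgeR adjusted p = 0.459). Its start peak, 52268147 to 52268516, held 42.0 ± 4.89 CPM in WT and 41.7 ± 9.46 in KO. The largest peak, 52197972 to 52198366, lay 69971 bp upstream of the gene. It held 45.7, 40.2, 40.8 and 52.8 CPM in WT and 59.8, 73.1 and 56.0 in KO. Every KO library was above every WT library. Its log2 fold change was 0.47 (SE 0.15, adjusted p = 0.274).

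That upstream peak made up 13.2% to 15.5% of the Foxo1 sum in WT and 17.9% to 23.2% in KO, without overlap. This share does not depend on library depth. It rests on the same counts as the CPM of the peak, so it is not a separate observation. The other 7 loci overlapped in the share of their largest peak. Of all 4414 genes with at least 3 tested peaks, 9.22% did not overlap in this share. Lower peaks at the same locus were 52257850 to 52258101, at 5.19 to 8.62 CPM in WT and 1.22 to 4.74 in KO, and 52343541 to 52343895 inside the gene, at 14.0 to 17.2 in WT and 8.82 to 12.4 in KO. Their log2 fold changes were -1.06 (SE 0.53, adjusted p = 0.530) and -0.53 (SE 0.30, adjusted p = 0.603). Of these, the peak at 52257850 passed the filter on low counts through its WT values alone, and without WT replicate 1 or WT replicate 4 it was not tested.

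Foxo3 (chromosome 10, 42181845 to 42276695) had the smallest p of the 8 sums. It held 303.2, 301.4, 285.2 and 268.2 CPM in WT and 348.1, 288.2 and 362.8 in KO. KO replicates 1 and 3 were above all WT libraries and KO replicate 2 was among them. The means were 288.3 ± 18.1 and 333.0 ± 39.5, and the log2 fold change was 0.21 (SE 0.07, unadjusted p = 0.00453, adjusted p = 0.201), with an approximate 95% interval from 0.07 to 0.35. Without KO replicate 2, the KO library that lay among WT, it was 0.29 (edgeR adjusted p = 0.0497), just past the threshold. With that library left out, 57 of all gene sums were called, against 46 on all libraries. Over the alternatives for the Foxo3 sum the adjusted p ran from 0.0497 to 0.68. Of the 13287 gene sums tested, 0.346% were called and 11.4% had an unadjusted p under 0.05. The Foxo3 sum did not pass the test on all 7 libraries.

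Of the 9 tested Foxo3 peaks, 8 lay above 0 and 1 below. The largest, 42277544 to 42278341, lay 849 bp beyond the 5′ end of the gene and stood at the 98.7 percentile of all tested peaks. It held 155.3, 132.4, 146.4 and 158.3 CPM in WT and 175.3, 129.1 and 185.8 in KO (edgeR log2 fold change 0.15, SE 0.10, adjusted p = 0.687). KO replicate 2 was the lowest of the 7 libraries there and KO replicate 3 the highest. The peak on the start itself, 42276590 to 42276924, held 45.1 ± 8.35 in WT and 48.2 ± 10.4 in KO.

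A pair of smaller peaks inside Foxo3 was higher in every KO library. The peak 42193023 to 42193377 held 12.1, 14.3, 8.17 and 10.1 CPM in WT and 21.3, 18.3 and 18.2 in KO (edgeR log2 fold change 0.80, SE 0.29, adjusted p = 0.33). The peak 42270700 to 42271034 held 14.9, 16.9, 12.8 and 17.2 in WT and 24.3, 23.1 and 23.9 in KO (edgeR log2 fold change 0.62, SE 0.25, adjusted p = 0.404). Neither was called.

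**Figure D3:**
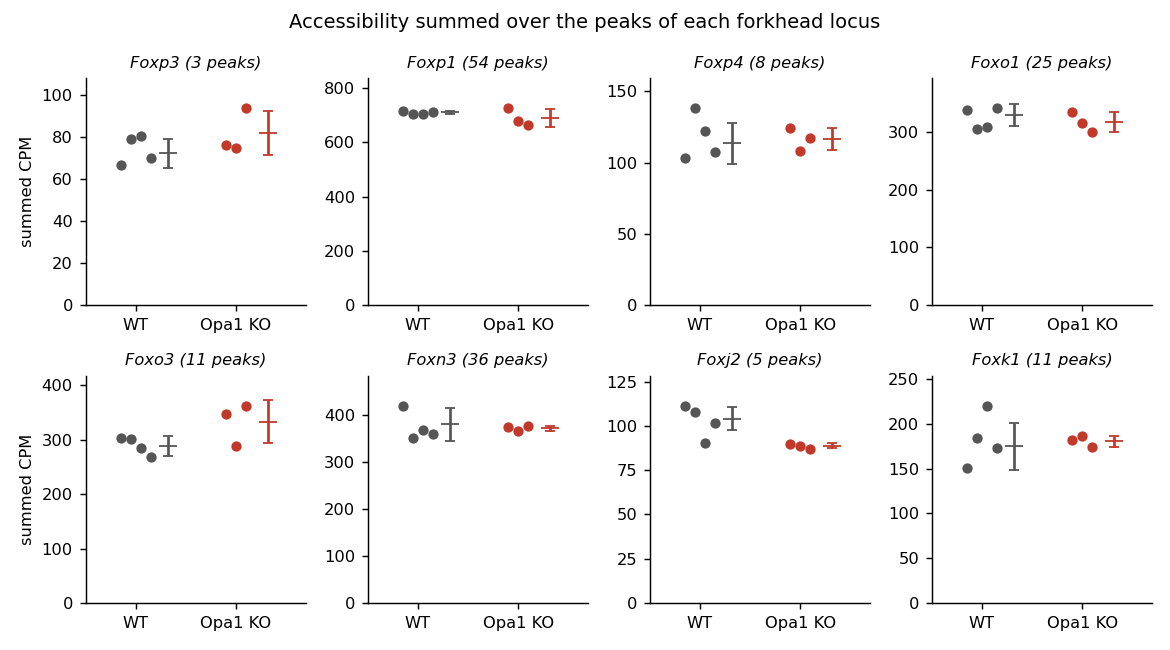
Summed CPM of the peaks of each locus in the 4 WT (grey) and 3 Opa1 KO (red) libraries, with the mean and SD at the right of each group (WT replicates 2 and 3 averaged first, n = 3). The axes start at 0. At Foxj2 all KO libraries, 87.2 to 90.1 CPM, lie below all WT libraries, 90.6 to 111.5, and at the other 7 loci the groups overlap.

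Foxn3 (chromosome 12, 99190081 to 99563667) had 36 peaks, of which 15 were too low to be tested. Its sum was 420.4, 352.1, 369.4 and 359.9 CPM in WT and 374.4, 366.2 and 376.2 in KO, with all KO libraries inside the WT range (log2 fold change -0.01, SE 0.07, adjusted p = 0.978, interval -0.15 to 0.12). The smallest p of all forkhead peaks was at 99561436 to 99561642, inside the gene and 2128 bp from its 5′ end. It held 2.80, 4.54, 2.33 and 3.55 CPM in WT and 8.88, 9.75 and 11.4 in KO, from 4 to 7 counts per WT library and 16 to 30 per KO library. All KO libraries were above all WT libraries, and the log2 fold change was 1.59 (SE 0.46, adjusted p = 0.200). It passed the filter on low counts through its KO values, so it could be tested only because it was higher there. A peak farther inside, 99394208 to 99394551, had 10.7 to 14.9 CPM in WT and 8.30 to 9.48 in KO (edgeR log2 fold change -0.59, SE 0.33, adjusted p = 0.591). The largest, 99380883 to 99381322, had 19.5 to 31.7 in WT and 24.9 to 44.6 in KO (edgeR log2 fold change 0.33, SE 0.21).

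Foxj2 (chromosome 6, 122820184 to 122845366) was the 1 locus of the 8 whose sums did not overlap between the groups, where 9.61% of all gene sums did not. It held 111.5, 107.8, 90.6 and 101.9 CPM in WT and 90.1, 89.0 and 87.2 in KO, and WT replicate 3 lay close to the KO values. The log2 fold change was -0.21 (SE 0.12, adjusted p = 0.509), with an interval from -0.45 to 0.02. Over the 4 peaks inside the gene alone it was -0.39 (edgeR adjusted p = 0.234). Of its 5 peaks 4 lay below 0. The largest, 122826051 to 122826796, held 51.8, 51.9, 38.5 and 52.8 in WT and 38.5, 37.8 and 40.5 in KO (edgeR log2 fold change -0.33, SE 0.17, adjusted p = 0.541), with WT replicate 3 again at the KO level. The peak 122820755 to 122821073 held 15.2 to 17.8 CPM in WT and 9.34 to 14.5 in KO (edgeR log2 fold change -0.43, SE 0.29, adjusted p = 0.686). The peak that reached into the start sequence, 122819723 to 122820070, lay above 0, with 22.2 ± 4.52 in WT and 26.6 ± 2.33 in KO.

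Foxk1 (chromosome 5, 142401497 to 142462015) had 11 peaks, 8 of them tested. Its sum was 150.5, 184.5, 220.4 and 172.9 CPM in WT and 181.7, 186.5 and 173.9 in KO, all within the WT range (log2 fold change -0.00, SE 0.09, adjusted p = 0.996, interval -0.18 to 0.17). The largest peak, 142440472 to 142441041, held 52.8 to 75.3 CPM in WT and 62.8 to 69.4 in KO (edgeR log2 fold change 0.10, SE 0.14). The next peak along the gene, 142441402 to 142441862, held 26.1, 27.3, 32.7 and 27.4 in WT and 25.2, 18.3 and 13.5 in KO. KO replicate 1 lay just under the WT libraries and the other KO libraries farther below (log2 fold change -0.53, SE 0.23, adjusted p = 0.453).

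**Figure D4:**
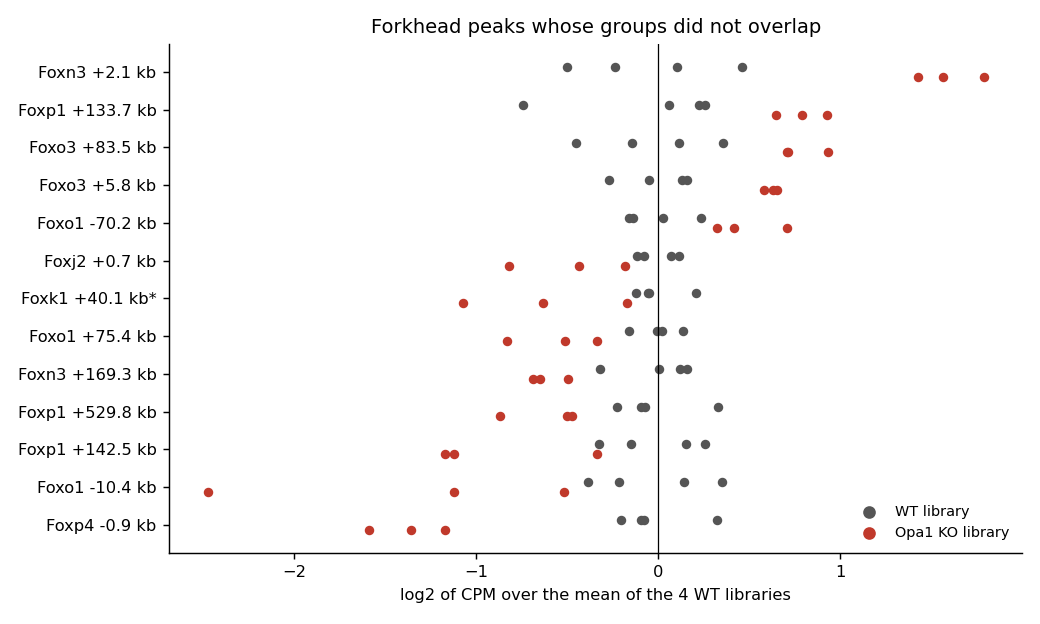
The 13 named forkhead peaks whose WT and KO libraries did not overlap, as log2 of each library's CPM over the mean of the 4 WT libraries, labelled by the distance of the peak centre from the 5′ end of the gene (for Foxk1, marked *, from the end at the lower coordinate). From the top, 5 peaks are higher in KO and 8 are lower; none was called.

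Per kb of peak, the WT level was highest at Foxp3, 79.9 ± 7.49 CPM per kb, and at Foxo3, 77.8 ± 4.88, which differed by less than their spread. Foxj2 followed at 54.4 ± 3.39 and Foxo1 at 46.0 ± 2.64, then Foxk1 at 39.6 ± 5.90, Foxp1 at 35.6 ± 0.265, Foxp4 at 35.5 ± 4.56 and Foxn3 at 33.3 ± 3.04. Among these last 4, neighbours in the order did not differ beyond their spread. In KO the highest were again Foxp3, 90.4 ± 11.6, and Foxo3, 89.9 ± 10.7, and the lowest was Foxn3 at 32.6 ± 0.466. The distance limit took in a Foxo1 peak 93851 bp from the gene, at 22.9 ± 5.21 CPM in WT and 16.3 ± 2.69 in KO. It left out the next one, 108484 bp from Foxo1, at 58.5 ± 4.68 in WT and 60.1 ± 2.54 in KO.

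Among other genes, the 3 whose sums followed Foxp3 most closely over the 7 libraries were Antxr2, an anthrax toxin receptor (Pearson r = 0.988), Agfg2 (0.953) and Nemp2 (0.946). They are the highest of 6652 genes compared over only 7 libraries, and none of them was called. Of 36 other forkhead genes, 19 had a peak and 16 had enough counts for the test. It called 0 of the 16, and 0 had an unadjusted p under 0.05. Of these, 6 lay above 0 and 10 below, with a median log2 fold change of -0.02, where 50% of all gene sums lay above 0 and their median was 0.000. The smallest p was at Foxo4, another FOXO gene, with 29.2 ± 5.80 CPM in WT and 36.0 ± 6.96 in KO (edgeR log2 fold change 0.38, SE 0.20, adjusted p = 0.462).

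Of 20 genes for partners of FOXP3 and factors that act at its enhancers, 0 were called, 11 lay above 0 and 9 below, and 3 had an unadjusted p under 0.05, where 11.4% of all gene sums had one and 50% lay above 0. The smallest p was at Tet2, an enzyme that oxidises methylated DNA and acts at CNS2, with 546.4 ± 29.4 CPM in WT and 465.0 ± 11.3 in KO (edgeR log2 fold change -0.21, SE 0.06, adjusted p = 0.112). Of 20 FOXO targets and genes of the PI3K-AKT pathway, 0 were called, 14 lay above 0 and 6 below, with a median of 0.05, and 1 had an unadjusted p under 0.05, against the same shares of all gene sums. That gene was Klf2, a FOXO1 target that controls lymphocyte egress, with 141.2 ± 17.5 CPM in WT and 172.0 ± 5.96 in KO (edgeR log2 fold change 0.25, SE 0.10, adjusted p = 0.244). DESeq2 called 0 of the 8 forkhead sums.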

How the data were processed

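ATAC-seq libraries of sorted splenic Treg cells, 4 WT and 3 Opa1 KO, were compared. The deposited table holds raw counts, 1 whole number for each peak and library. Per the submitters' processing notes, reads were handled with mm10 and the tools BWA 0.7.16, MACS2 2.1.1, Trimmomatic 0.36, bedtools 2.25.0, SAMtools 1.9 and Picard 2.9.4. Tool settings, peak merging and any transposase shift of reads, which would move peak edges slightly, are not stated there. Between 78.0% and 86.3% of the counts per library were even, which counting both mates of a pair gives, so counts overstate fragments. Positions are as deposited. Without molecular identifiers, PCR copies are not independent molecules.

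Protein-coding genes came from a RefSeq table of GRCm38.p6, which mm10 corresponds to. A peak in several genes counted for each. Counts per peak, and counts summed per gene, were compared between genotypes over all 7 libraries by the robust quasi-likelihood test of edgeR 4.0.16, run under R 4.3.3, with no covariate. filterByExpr (minimum count 10, total 15) kept 38041 peaks and 13287 gene sums. TMM scaling (factors 0.989 to 1.010) and Benjamini-Hochberg adjustment over all of them followed, and where no tool is named a p-value, adjusted or not, is from edgeR. The procedure was tested on simulated counts. Changes of 1.5, 2 and 4 fold were called at 18%, 45.9% and 88.7% of the changed peaks. Among the changed gene sums the shares were 52.2%, 83.6% and 98.5%. A modest change at a single peak would thus mostly be missed. Named peaks were, per gene, the one with the highest mean count, the one with the smallest p, and up to 2 more without overlap between groups. Start peaks, the smaller Foxp3 peaks, the Foxp1 peak 99385046 to 99385561 and the peaks at the distance limit were added after their values were seen. One marker list is not reported here. The members and lists were chosen with earlier results of these data known. The alternatives were other scalings, filters, DESeq2 1.42.0, halved counts, WT replicates 2 and 3 summed, a replicate block, other distances, and each library left out.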

Additional observations from a re-analysis of the deposited data

Results flagged for a closer look

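At the largest Foxj2 peak, 122826051 to 122826796, WT replicate 3 stood apart from the other WT libraries, at 38.5 CPM against 51.8 to 52.8. The gap was 0.930 of the range of the 4 WT libraries, above the 95% critical value of Dixon's test for 4 values. It was 1 of 28 sums and peaks examined in this way, and chance gives about 1 in 20.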

How the results depend on the processing

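The count of called forkhead peaks was 0 under each of 15 alternatives. The count of called sums was 0 under 16 of 17 and 1 (Foxo3) without KO replicate 2, so it ran from 0 to 1 with a library left out. Among all gene sums 57 were called without KO replicate 2, against 46 on all libraries. The count of peaks without overlap was 16 on all libraries and ran from 19 to 26 with a library left out. It was 25 without WT replicate 4 and 26 without KO replicate 3. Fewer values overlap less often, and over all tested peaks the share rose as well, from 9.32% to between 13.8% and 17.7%. The alternatives for this count were chosen after seeing the data. Values close to 0 changed sign, and the cause was not tested. With a library left out, the Foxp4 sum ran from -0.06 to 0.09, the Foxo1 sum from -0.08 to 0.01, the Foxk1 sum from -0.09 to 0.10, the Foxn3 sum from -0.04 to 0.05, the largest Foxp1 peak from -0.14 to 0.02 and the largest Foxp4 peak from -0.05 to 0.18. The Foxp4 sum was also -0.01 with total counts as the only scaling, -0.002 when sums averaging under 20 counts were dropped, and -0.03 with the replicate block. The Foxk1 sum was also 0.0011 with halved counts, 0.03 with WT replicates 2 and 3 summed, and 0.01 with a distance of 50 kb. Every other sum and named peak kept its direction under the alternatives in which it could be tested.

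Same-numbered WT and KO libraries showed no shared deviation (correlations 0.011, -0.012 and 0.004, against -0.038 to 0.029 for differently numbered ones). Sampling noise at low counts can hide a weak shared deviation, so this could not settle whether the numbers pair libraries. With the replicate number as a block, 0 forkhead peaks and 0 sums were called, the largest Foxp4 peak was -0.05, and the count of calls went from 33 to 13 over all peaks and from 46 to 24 over all gene sums. Median counts of 14 to 30 per peak limit single peaks most.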

Other observations

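The peaks next to the Foxp3 locus belong to neighbouring genes by the rule of assignment. The nearest, 4672 bp before Foxp3 and inside Ppp1r3f (chromosome X, 7574207 to 7575004), held 71.2 ± 5.41 CPM in WT and 80.4 ± 8.70 in KO (edgeR log2 fold change 0.19, adjusted p = 0.685), beside 58.8 ± 5.79 and 67.6 ± 4.70 at the largest Foxp3 peak. The next, 8546 bp before Foxp3, held 24.4 ± 0.871 in WT and 23.9 ± 8.39 in KO. On the other side, a peak inside Ccdc22, 10013 bp beyond Foxp3, held 13.5 ± 6.25 in WT and 11.0 ± 2.17 in KO.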
